A study of Schmidtea mediterranea with 8 samples.

Results

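In the cephalic ganglia of the planarian Schmidtea mediterranea, 109 of the 38634 contigs of the transcriptome assembly had lower mean read levels after RNAi of hedgehog (hh) and also after RNAi of its receptor gene patched (ptc). The members were chosen by the deposited group means of these same libraries. A contig was taken when log2((RNAi mean + 1)/(control mean + 1)) was -0.58 or lower in both conditions and the average of control and RNAi means was at least 100 normalized reads in both comparisons. Of 11907 contigs at that minimum, 280 were at or below -0.58 in hh(RNAi), 213 in ptc(RNAi) and 111 in both. The 2 that the study lists as marker genes, ptc itself and agat-1, were left out. These values chose the members and are given below as a description, with no test.

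Hedgehog is a secreted ligand. In animals in which the pathway has been studied it binds Patched, a membrane protein that otherwise holds Smoothened inactive, and active Smoothened acts through Gli transcription factors, which Sufu restrains. Loss of the ligand therefore lowers pathway output and loss of Patched raises it, so that genes controlled by the pathway are commonly looked for among those that move in opposite directions in the 2 conditions. The 109 contigs moved in the same direction in both. Planarians renew their tissues from dividing stem cells called neoblasts. The epidermis is replaced through a series of post-mitotic progeny, of which prog-1 marks an early and agat-1 a later stage.

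Each of 4 groups had 2 libraries of poly(A) RNA. The 3 ganglia groups came from S2F1L3F2 sexual strain animals that were fed dsRNA-expressing bacteria 12 times at 4-day intervals, against hh, against ptc or, as control, against unc-22, a nematode gene that planarians lack. The ganglia were dissected after a brief acid treatment. The reference group was head fragments of CIW4 asexual strain animals fed unc-22 dsRNA 6 times at the same interval, and head fragments hold ganglia together with most other tissues. Ganglia and heads thus differ in tissue, strain, number of feedings and the RNA put into a library, which cannot be told apart. The libraries of a group were prepared in duplicate with different indexes and nothing says that they came from separate sets of animals, so p-values measure the spread between these libraries, which may be technical.

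The deposited tables hold group means, from which the whole reads of each library were recovered. The recovered libraries are called a and b within a group and carry no replicate number, so library a of one group has no tie to library a of another. Depth ran from 11479783 to 18932854 reads per library. Both RNAi comparisons were made against the same pair of control libraries, whose reads were identical in all 38634 contigs of the 2 tables, so a control library that is high for a contig lowers that contig in both comparisons. Levels below are normalized reads on 1 scaling over the 8 libraries. They are not corrected for contig length, so levels are compared between libraries and not between contigs. In bulk RNA, fewer cells of a type and less RNA per cell cannot be told apart.

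The targeted gene was lower in its own condition: hh was at 256 and 223 normalized reads in the controls against 39.3 and 85.1 in hh(RNAi), and ptc was at 303 and 310.1 against 198 and 201 in ptc(RNAi). Neither passed the limma test, and ptc was lower still in hh(RNAi), at 159 and 117. That test called only 1 of 12153 contigs in hh(RNAi) against control. The study, which used DESeq2, reported hh as significantly lower in hh(RNAi), at an adjusted p below 0.05. The ganglia carried the neuronal marker prohormone convertase 2 above the heads (log2 2.66 ± 0.08 (SE), adjusted p = 3.28e-05) and the muscle marker collagen below them (log2 -4.44 ± 0.25 (SE), adjusted p = 9.72e-05), by limma with Benjamini-Hochberg adjustment over 13494 contigs.

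The 109 contigs carry 95 distinct leading numbers in their identifiers. The number 364 is shared by 8 members, 101 by 3 members and 5 others by 2 members each. Contigs that share a number can be forms of 1 gene or near copies, among which the single best alignment kept for each read may have divided the reads, so their separate values are uncertain and they are not independent. Summed over all contigs with the same number, all 95 numbers still met the rule. The study's list of transcripts affected by RNAi holds 3 members, prog-1 (dd_Smed_v4_332_0_1), dd_Smed_v4_16532_0_1 and dd_Smed_v4_69_0_2, the latter pair with no similar protein given. All members but prog-1 are named here by identifier.

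Relative to the controls, the log2 values of the members ran from -2.75 to -0.58 in hh(RNAi), with a median of -1.12. In ptc(RNAi) they ran from -5.83 to -0.59, with a median of -1.01. The fall was deeper in hh(RNAi) for 52 members and deeper in ptc(RNAi) for 57. At a threshold of -1 in place of -0.58, 36 members would have remained. The hh(RNAi) values of the 3 just inside it (dd_Smed_v4_12374_0_1, dd_Smed_v4_5510_0_1 and dd_Smed_v4_2_1_1) were -0.5803, -0.5873 and -0.5905, and those of the 3 just outside (dd_Smed_v4_1971_0_3, dd_Smed_v4_1971_0_2 and dd_Smed_v4_13_0_1) were -0.5792, -0.5792 and -0.5567. On the ptc(RNAi) side, dd_Smed_v4_4039_0_1, dd_Smed_v4_775_0_1 and dd_Smed_v4_480_0_1 were inside at -0.5858, -0.5876 and -0.6064, and dd_Smed_v4_499_0_1, dd_Smed_v4_34434_0_1 and dd_Smed_v4_1013_0_1 outside at -0.5739, -0.5684 and -0.5671. The members just above the minimum level were dd_Smed_v4_1066_0_1, dd_Smed_v4_364_0_3 and dd_Smed_v4_364_0_5, with averages of 100.5, 101 and 102 normalized reads. Just below it were dd_Smed_v4_1413_0_1, dd_Smed_v4_364_0_6 and dd_Smed_v4_2178_0_1 at 98.6, 98.2 and 95.5.

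**Figure D1:**
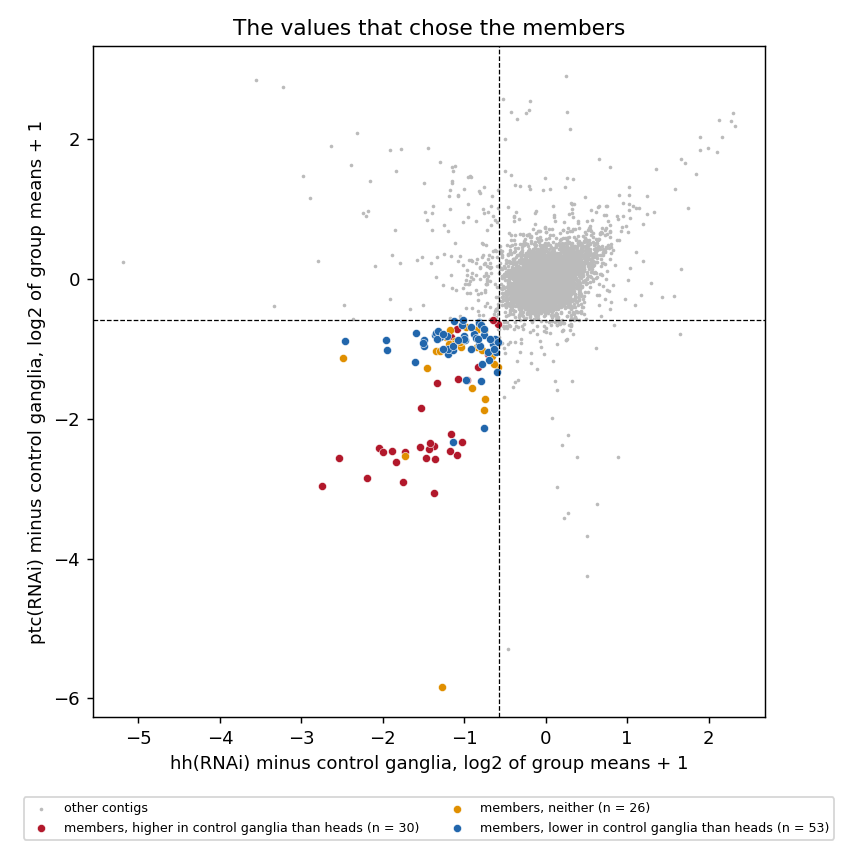
Log2 difference of group means from the control ganglia in hh(RNAi) (x axis) and ptc(RNAi) (y axis) for the 11907 contigs at the minimum level, with the thresholds at -0.58 dashed. Grey points are other contigs and colours give the members by their level in control ganglia against heads; the members fill the lower left corner because the rule put them there, and those higher in ganglia than heads reach the lowest ptc(RNAi) values apart from 1 point at -5.83.

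The replicate libraries of the members were far apart. The median absolute log2 difference between the control libraries was 0.88 over the members and 0.13 over the 11907 contigs at the minimum. In 47 members (43.1%) the control libraries were more than 2-fold apart, against 1.46% of the contigs at the minimum. Control library a was the higher in 31 of these members and library b in 16. By any margin library a was the higher in 65 of 109, beside 44.0% of the contigs at the minimum. Among the RNAi libraries, hh(RNAi) library a was below library b in 105 of 109 members (96.3%, against 63.7% of the contigs at the minimum), by a median factor of 1.91. For ptc(RNAi), library a was above library b in 74 (67.9%, against 60.9%). The rule used these same libraries, and a single high control library or a single low RNAi library helps a contig to meet it. The spread between the libraries of the members is therefore not independent of the rule and is given as a description only.

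Both control libraries lay above all 4 RNAi libraries in 64 of the 109 members, and in 5.7% of the contigs at the minimum; the rule used this contrast, so the count is given as a description only. In the other 45 members the groups overlapped. With control library a alone standing for the controls, 74 members still met the rule, with control library b alone 73, and with each of them in turn 38. Only 26 members met it whichever of the 6 ganglia libraries was left out. The rule was met by 69 contigs without hh(RNAi) library a and by 71 without ptc(RNAi) library b, which were the low libraries of most members. No member passed the limma test in hh(RNAi) against control, where 0.00823% of 12153 contigs were called lower, although 56 had an unadjusted p under 0.05, beside 2.27% of the contigs. edgeR called 0 members, beside 2 of all 12153 contigs lower, and DESeq2 14, beside 37. In ptc(RNAi) against control the limma test called 1 member lower, dd_Smed_v4_18472_0_1, beside 0.0743% of 12121 contigs lower and 0.338% called in either direction, and 69 members had an unadjusted p under 0.05, beside 6.39%. edgeR called 0 members, beside 8 of all 12121 contigs lower, and DESeq2 22, beside 38. Nothing is read from these counts, since the same contrasts chose the members. The part of the shared control libraries in the members' lower values was not tested.

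**Figure D2:**
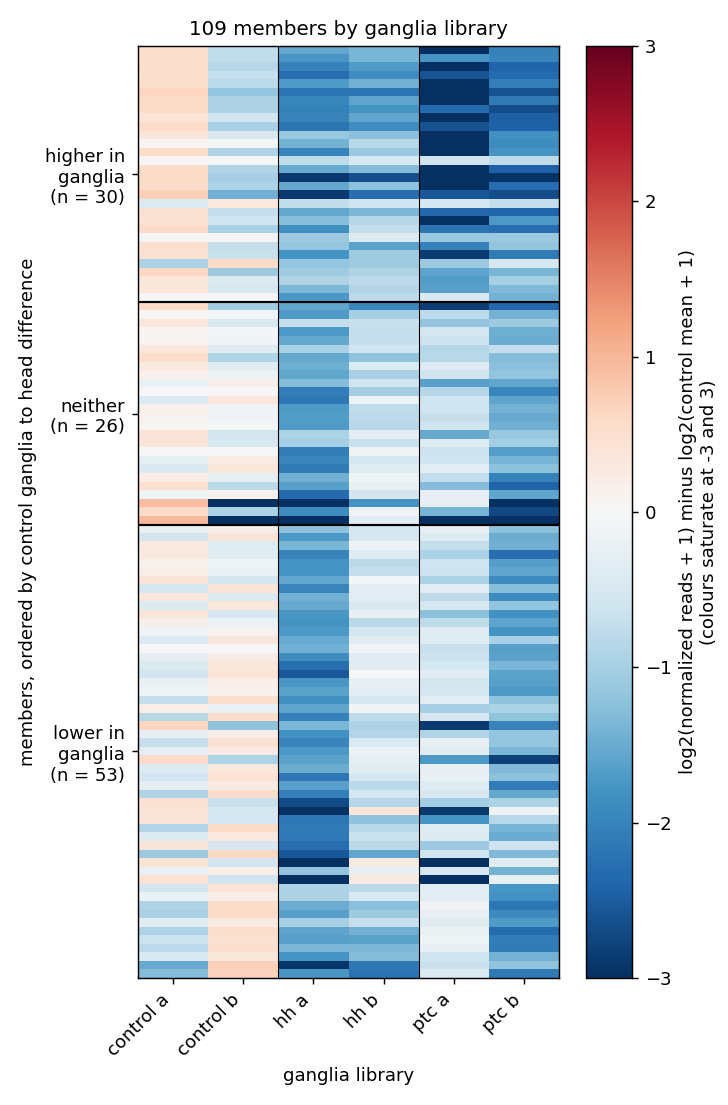
Each row is 1 of the 109 members and each column a ganglia library; colour gives log2(normalized reads + 1) minus log2(control mean + 1), from blue (lower) to red (higher), with the ends of the scale at -3 and 3. Rows are ordered from the highest to the lowest control ganglia to head difference within 3 blocks of 30, 26 and 53 members; in the top block control library a is mostly the redder of the controls, and in the bottom block hh a and ptc b are mostly the bluest columns.

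The members spanned a wide range of ganglia to head levels. The heads took no part in choosing them, but the control ganglia did, as the high group of the rule, so the ratio is not independent of it. A contig was called where limma, fitted to log2 of the normalized reads with 1 added, gave an adjusted p below 0.05 and a difference over 2-fold. So called, 30 members (27.5%) were higher in control ganglia than in heads, beside 32.7% of all 13494 contigs tested. A larger share, 53 members (48.6%), was lower in ganglia, beside 22.2% of all contigs, and 26 were called in neither direction. In all, 83 members were called, beside 55.0% of the contigs, and 96 had an unadjusted p under 0.05, beside 85.6%. The median log2 difference was -1.08 over the members and 0.32 over all contigs tested. That last value depends on the scaling (it was 0.02 with edgeR's TMM and -0.00145 with DESeq2), and relative to the median of all contigs 28 members were called higher and 61 lower. Over all contigs, 4418 were higher and 3000 lower in ganglia by limma, but 3465 and 3667 by edgeR and 3423 and 3696 by DESeq2, while of the members 29 and 59 were called by edgeR and 30 and 58 by DESeq2. The account below follows these 3 sets, which were formed after the values were seen.

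Among the 30 members higher in ganglia were contigs with almost no reads in heads. Of these, 10 had 3 or fewer reads in both head libraries together, and 27 were above a log2 difference of 2. The contig with the largest ratio, dd_Smed_v4_14543_0_1, was at 58361 and 24892 normalized reads in the control ganglia, 14449.5 and 16056 in hh(RNAi) and 4667 and 10277 in ptc(RNAi), against 1.43 and 0 in the control heads. All 4 RNAi libraries lay below both controls, and control library a was 2.34 times library b. Its 2 head reads give a ganglia to head ratio of 53605 with a 95% counting interval from 14839 to 442636 (exact Poisson, counting error only).

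The next, dd_Smed_v4_8319_0_1, was at 24519.6 and 10227 normalized reads in the control ganglia, 5162 and 6746 in hh(RNAi) and 5075 and 4341 in ptc(RNAi), against 0.715 and 0.850 in the control heads. It had the same order of groups with no overlap. The contig dd_Smed_v4_28743_0_1 was at 22502 and 8891 normalized reads in the control ganglia, 4835 and 5801 in hh(RNAi) and 1974 and 3774 in ptc(RNAi), against 4.29 and 1.70 in the control heads. Again control library a was more than 2 times library b, and both were above all RNAi libraries. The contig dd_Smed_v4_25256_0_1 was at 8246 and 3128 normalized reads in the control ganglia, 1394 and 1759 in hh(RNAi) and 704 and 1095 in ptc(RNAi), with 0 reads in the heads. Against the 3 reads over both head libraries that a count of 0 allows, it was at least 4883-fold higher in control ganglia. No head read was found either for dd_Smed_v4_67108_0_1, at 6290.1 and 2751 normalized reads in the control ganglia, 927 and 1234 in hh(RNAi) and 746 and 896 in ptc(RNAi), which was at least 3881-fold higher in ganglia.

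Without head reads were also dd_Smed_v4_93802_0_1 and dd_Smed_v4_74919_0_1, at least 324-fold and 215-fold higher in control ganglia. With all 4 set to these bounds the median over the members stayed at -1.08, which it had to, since the bounds are far above it. The 5 members with the largest gaps between the lower control and the highest RNAi library were in this set. In dd_Smed_v4_23064_0_1, at 555 and 181 normalized reads in the control ganglia, 48.6 and 57.9 in hh(RNAi) and 43.8 and 46.8 in ptc(RNAi), against 1.43 and 3.40 in the control heads, the lower control was 3.12 times the highest RNAi library. The gap was 2.23-fold in dd_Smed_v4_67108_0_1, 2.09-fold in dd_Smed_v4_71983_0_1, 1.99-fold in dd_Smed_v4_85836_0_1 and 1.85-fold in dd_Smed_v4_93802_0_1. Smaller gaps followed in dd_Smed_v4_23064_0_2 (1.81-fold), which shares its number with dd_Smed_v4_23064_0_1, and in dd_Smed_v4_91061_0_1 (1.78-fold). Control library a exceeded library b by 2-fold or more in each of the 5 except dd_Smed_v4_85836_0_1, where the ratio was 1.99.

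Over the 30 contigs, control library a was more than 2 times library b in 20 (0.865% of the contigs at the minimum), with a median ratio of 2.32. Both controls were above all RNAi libraries in 27 (5.7% of the contigs at the minimum), and 18 still met the rule with control library b alone. These counts rest on the values the rule used. The median log2 value was -1.37 in hh(RNAi) and -2.42 in ptc(RNAi), and ptc(RNAi) was the lower in 27 of 30. Here ptc(RNAi) library a was the lower of its pair in 22 of 30, unlike in the other sets. It was the higher in 60.9% of the contigs at the minimum.

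In dd_Smed_v4_92653_0_1, at 8856 and 3195 normalized reads in the control ganglia, 1561 and 2027 in hh(RNAi) and 722 and 1380.1 in ptc(RNAi), against 0.715 and 2.55 in the control heads, both controls were above all RNAi libraries, with library a the higher by far. The same order was seen at a lower level in dd_Smed_v4_36432_0_1, at 287 and 104 normalized reads in the control ganglia, 68.3 and 79.4 in hh(RNAi) and 8.15 and 35.6 in ptc(RNAi), against 0 and 0.850 in the control heads. Some contigs high in ganglia had similar control libraries. Among them was dd_Smed_v4_16532_0_1, which the study lists among transcripts affected by RNAi, at 1994 and 1862 normalized reads in the control ganglia, 720.2 and 1076 in hh(RNAi) and 124 and 522 in ptc(RNAi), against 7.86 and 5.95 in the control heads. The controls were close to each other and above all RNAi libraries, while the ptc(RNAi) libraries were 4.20-fold apart. It was higher in ganglia than heads (log2 8.08 ± 0.17 (SE), adjusted p = 1.94e-05, limma). Another, dd_Smed_v4_12374_0_1, was at 2829.8 and 2693 normalized reads in the control ganglia, 1625 and 2025 in hh(RNAi) and 1834 and 1625 in ptc(RNAi), against 15.0 and 13.6 in the control heads. Both controls were above all RNAi libraries, while the hh(RNAi) and ptc(RNAi) libraries overlapped, and of all members it was the closest to the threshold in hh(RNAi). The most abundantly sequenced member, dd_Smed_v4_4_1_1, was at 25252 and 72089 normalized reads in the control ganglia, 21622 and 23318 in hh(RNAi) and 22853 and 34738 in ptc(RNAi), against 7621 and 10416 in the control heads. Here control library b alone was high and control library a lay among the RNAi libraries.

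Another pattern was shown by prog-1, the early epidermal progeny marker, which was at 7957 and 7581 normalized reads in the control ganglia, 2359 and 4520.1 in hh(RNAi) and 5684 and 2886 in ptc(RNAi), against 3934 and 4247 in the control heads. The control libraries were close together and above every RNAi library, with hh(RNAi) library a and ptc(RNAi) library b the lowest. It was higher in ganglia than heads (log2 1.06 ± 0.08 (SE), adjusted p = 0.000186, limma) by just over 2-fold, and relative to the median of all contigs by log2 0.74, which is under 2-fold. The later progeny marker agat-1, left out by the rule, was at 803 and 1257 normalized reads in the control ganglia, 367 and 996 in hh(RNAi) and 831 and 394 in ptc(RNAi), against 4889 and 4772 in the control heads. It had the same low libraries, but its groups overlapped. Its rule values were -0.59 in hh(RNAi) and -0.72 in ptc(RNAi), so in hh(RNAi) it was just inside the threshold.

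Among the 26 members called in neither direction against heads, several had the library order of prog-1. In this set hh(RNAi) library a was below library b in 25 (63.7% of the contigs at the minimum). In 21 (60.9%) ptc(RNAi) library a was above library b. Both counts rest on the values the rule used. The contig dd_Smed_v4_61_0_1 was at 11451 and 9911 normalized reads in the control ganglia, 3321 and 6247 in hh(RNAi) and 6618 and 3739 in ptc(RNAi), against 14077 and 14897 in the control heads. The contig dd_Smed_v4_478_0_1 was at 6329.8 and 5803 normalized reads in the control ganglia, 1852 and 3696 in hh(RNAi) and 4220.2 and 2189.6 in ptc(RNAi), against 4358 and 4693 in the control heads. In both, all RNAi libraries were below the controls, and hh(RNAi) library a and ptc(RNAi) library b were the lowest. The same was true of dd_Smed_v4_69_0_1, at 8242 and 6928 normalized reads in the control ganglia, 2336 and 4457 in hh(RNAi) and 4992 and 2838 in ptc(RNAi), against 10023 and 10368 in the control heads. Its companion dd_Smed_v4_69_0_2, which is in the study's list of affected transcripts, was at 4319 and 3987 normalized reads in the control ganglia, 1282 and 2341 in hh(RNAi) and 2725 and 1536 in ptc(RNAi), against 6453 and 6679.7 in the control heads. With a lower level, dd_Smed_v4_3549_0_1 was at 266 and 266 normalized reads in the control ganglia, 62.7 and 128 in hh(RNAi) and 146 and 68.1 in ptc(RNAi), against 289 and 266 in the control heads, and its lower control was 1.82 times its highest RNAi library. The control libraries of these 5 contigs differed by 1.19-fold at most.

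Over the 26 contigs, both controls were above all RNAi libraries in 16 (5.7% of the contigs at the minimum). The control libraries were more than 2-fold apart in 6 (1.46%). These counts rest on the values the rule used. The median log2 values were -1.04 in hh(RNAi) and -1.02 in ptc(RNAi). The set also held members that depended on 1 library. The lowest ptc(RNAi) value of all, log2 -5.83, belonged to dd_Smed_v4_1086_0_1, at 516 and 10.9 normalized reads in the control ganglia, 5.61 and 212 in hh(RNAi) and 7.13 and 0 in ptc(RNAi), against 1179.8 and 1245 in the control heads. Control library b lay among the RNAi libraries, and without control library a, or without hh(RNAi) library a, the contig no longer met the rule. Against the heads it was at log2 -3.82 by limma, which averages the logs of control libraries at 516 and 10.9. By the deposited group means, the measure of the -5.83, no contig of this set was below log2 -2.06 against the heads. With its control libraries this far apart it was not called (adjusted p = 0.1, limma). Likewise dd_Smed_v4_16560_0_1 was at 377 and 20.7 normalized reads in the control ganglia, 11.2 and 57.9 in hh(RNAi) and 166 and 13.2 in ptc(RNAi), against 182 and 239 in the control heads, with control library a high and both hh(RNAi) library b and ptc(RNAi) library a above control library b.

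The 53 members lower in ganglia than heads were the largest set and the one whose groups overlapped most often. Both controls were above all RNAi libraries in 21 (5.7% of the contigs at the minimum), and control library b was more than 2 times library a in 15 (0.596%). The rule was met by 5 whichever ganglia library was left out. These counts rest on the values the rule used. In 52 of 53 (63.7% of the contigs at the minimum), hh(RNAi) library a was below library b, by a median factor of 2.30. In 45 (60.9%) ptc(RNAi) library a was above library b, by 1.95. The median log2 values were -0.9976 in hh(RNAi) and -0.88 in ptc(RNAi).

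The contig furthest below the heads was dd_Smed_v4_950_0_1, at 134 and 532 normalized reads in the control ganglia, 98.2 and 70.3 in hh(RNAi) and 246 and 75.3 in ptc(RNAi), against 5310.0 and 5057 in the control heads (log2 -4.14 ± 0.65 (SE), adjusted p = 0.00277, limma). Control library a lay among the RNAi libraries and only control library b was above all of them. The same held for dd_Smed_v4_68_0_1, at 355 and 1665 normalized reads in the control ganglia, 134 and 227 in hh(RNAi) and 633 and 435 in ptc(RNAi), against 10676 and 11343 in the control heads. In dd_Smed_v4_5958_0_1, at 139 and 244 normalized reads in the control ganglia, 55.2 and 77.2 in hh(RNAi) and 125 and 71.2 in ptc(RNAi), against 2669 and 2484 in the control heads, both controls were above all RNAi libraries, by a small margin. Of the 9 contigs numbered 364, 8 were members and the last, dd_Smed_v4_364_0_6, missed the minimum level. As an example, dd_Smed_v4_364_0_4 was at 87.7 and 245 normalized reads in the control ganglia, 55.2 and 60.1 in hh(RNAi) and 146 and 32.5 in ptc(RNAi), against 2049 and 1947 in the control heads. Control library b was the highest ganglia library in all 8, and in 2 of them (dd_Smed_v4_364_0_8 and dd_Smed_v4_364_0_9) library a was also above every RNAi library. All 8 were lower in ganglia than heads, at log2 -3.36 to -3.65.

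A few contigs of this set swung between the libraries of every ganglia group. The contig dd_Smed_v4_24_0_1 was at 462 and 225 normalized reads in the control ganglia, 10.3 and 413 in hh(RNAi) and 29.5 and 289.8 in ptc(RNAi), against 4520.4 and 2637 in the control heads. Both hh(RNAi) library a and ptc(RNAi) library a were very low, while hh(RNAi) library b was close to the higher control. Its companion dd_Smed_v4_24_0_2 and dd_Smed_v4_2_1_1 did the same, the latter at 4357 and 2420.0 normalized reads in the control ganglia, 173 and 4349.9 in hh(RNAi) and 454 and 3059 in ptc(RNAi) (its head reads could not be divided between the libraries in only 1 way and their mean was 23273). Among the 10 members with the most normalized reads in ganglia was dd_Smed_v4_18_0_1, at 6427 and 4086 normalized reads in the control ganglia, 1311 and 3991 in hh(RNAi) and 2725 and 1074 in ptc(RNAi), against 12337 and 12675 in the control heads. Its hh(RNAi) library b and its lower control nearly touched. In contrast, dd_Smed_v4_363_0_1, at 1548 and 1285 normalized reads in the control ganglia, 408 and 815 in hh(RNAi) and 931 and 453 in ptc(RNAi), against 3444 and 3454 in the control heads, was among the 5 of the set that met the rule without any 1 library.

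**Figure D3:**
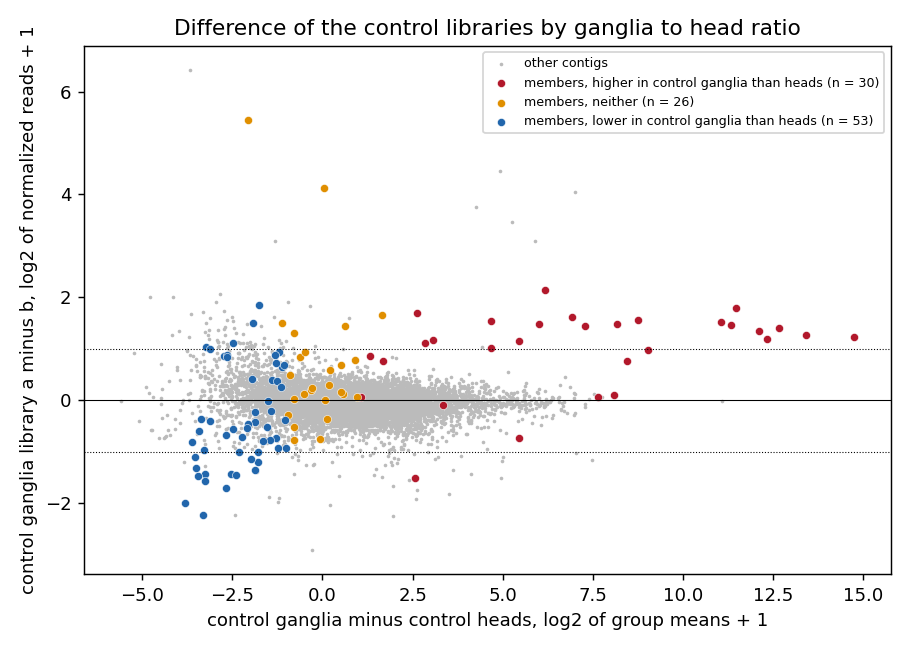
Log2 difference between control ganglia libraries a and b (y axis) against the log2 difference of control ganglia and control heads (x axis) for the 11907 contigs at the minimum level; dotted lines mark 2-fold. Grey points, the other contigs, lie mostly near 0, while 20 of the 30 members higher in ganglia (red) lie above the upper dotted line and 15 of the 53 lower in ganglia (blue) below the lower one. The rule used these control libraries, so the spread of the members is not independent of it.

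**Figure D4:**
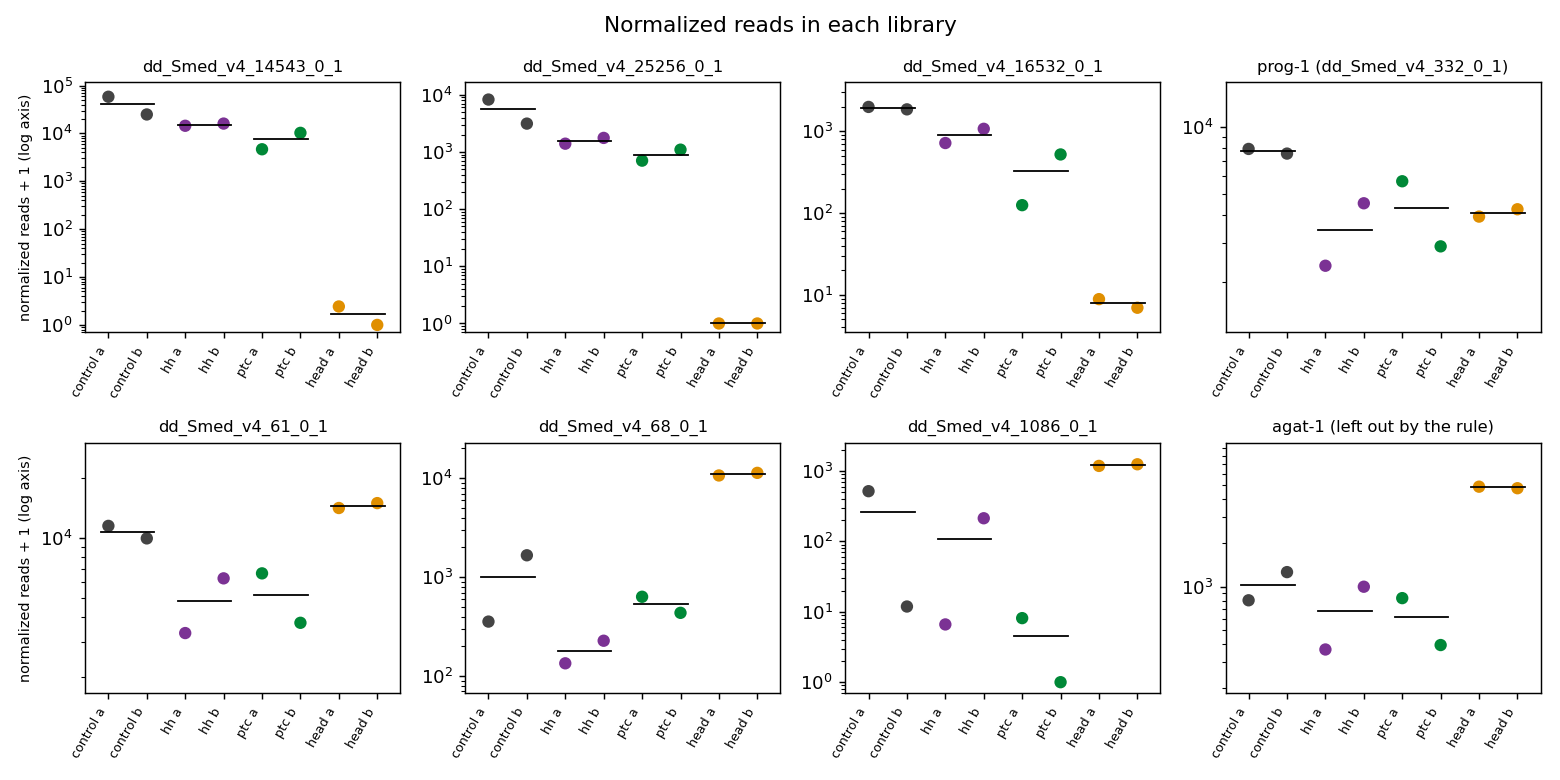
Normalized reads + 1 (log axis, a different range in each panel) of 7 members and agat-1 in the 8 libraries; points are libraries and bars the mean of the 2 libraries of a group. Control library a is the higher for dd_Smed_v4_14543_0_1 and dd_Smed_v4_25256_0_1, the controls are nearly equal for dd_Smed_v4_16532_0_1 and prog-1, and only 1 control library is high for dd_Smed_v4_68_0_1 and dd_Smed_v4_1086_0_1.

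Against the heads, the RNAi ganglia were lower than the control ganglia were, as the rule requires. In hh(RNAi), 93 of the 109 members passed the minimum level with the heads, of which 15 were called higher in ganglia (27.3% of 13055 contigs tested) and 69 lower (24.2%), or 84 in either direction (51.5%). An unadjusted p under 0.05 was found for 87 of the 93, beside 75.9%. The median log2 difference of those tested was -2.51, beside 0.12 for all contigs. In ptc(RNAi), 91 passed, of which 12 were higher (27.1% of 13013 contigs) and 69 lower (23.9%), or 81 in either direction (51.0%), and 85 had an unadjusted p under 0.05, beside 81.9%. The median was -2.69 beside 0.16 for all contigs. Members that were low in RNAi ganglia and in heads were removed by the minimum, so these medians are not over all members. All 3 comparisons use the same head libraries. The 53 contigs lower in control ganglia were called lower in both RNAi conditions, and of the 26 called in neither direction 16 were lower than heads in hh(RNAi) and 16 in ptc(RNAi). For prog-1 the log2 differences were -0.32 in hh(RNAi) and -0.01 in ptc(RNAi), neither past the limma test (adjusted p = 0.413 and 0.97). The contig dd_Smed_v4_14543_0_1 was also far above heads in both RNAi conditions, at log2 13.25 and 12.12. With 2 head reads, the size of these values depends on the added value. For the control ganglia, the log2 difference was 14.75 with 1 added and 11.98 with 10 added.

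The direct comparison of hh(RNAi) with ptc(RNAi) uses no control library, and the rule did not set one condition against the other. It did require both group means to be low against 1 control mean, which bears on how far they can differ among the members, so the members' counts and medians below are not independent of it. Of the 76 members that passed its minimum level, the limma test called none, beside 0.107% of 12101 contigs. An unadjusted p under 0.05 was found for 9 of the 76 (11.8%), beside 6.67% of all contigs. edgeR called 0, beside 8 of all contigs, and DESeq2 1, beside 156. The median log2 difference of hh(RNAi) from ptc(RNAi) was -0.09 over the members tested and -0.01 over all contigs. A p that misses the threshold does not show that the 2 conditions were alike: single members differed by up to log2 1.76 ± 0.70 (SE). The median moved with single libraries, to 0.46 without hh(RNAi) library a, -0.56 without hh(RNAi) library b, 0.31 without ptc(RNAi) library a and -0.49 without ptc(RNAi) library b. By set, over the members tested, it was 0.62 for the 18 higher in ganglia than heads, -0.20 for the 42 lower and -0.15 for the other 16.

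The lowest in hh(RNAi) relative to ptc(RNAi) was dd_Smed_v4_68_0_1, whose hh(RNAi) libraries (134 and 227) were both below its ptc(RNAi) libraries (633 and 435), a difference of log2 -1.61 ± 0.31 (SE), adjusted p = 0.266 by limma. DESeq2 called this contig lower. It was followed by dd_Smed_v4_379_0_1 (log2 -1.12 ± 0.41 (SE), adjusted p = 0.709, limma), and then by dd_Smed_v4_950_0_1, dd_Smed_v4_480_0_1 and dd_Smed_v4_468_0_1 at log2 -0.73, -0.65 and -0.62. The highest was dd_Smed_v4_16532_0_1 (log2 1.76 ± 0.70 (SE), adjusted p = 0.766, limma), for which both hh(RNAi) libraries exceeded both ptc(RNAi) libraries. After it came dd_Smed_v4_40515_0_1, dd_Smed_v4_137_0_1, dd_Smed_v4_85836_0_1 and dd_Smed_v4_14543_0_1, at log2 1.64, 1.30, 1.27 and 1.11, none past the test. Of the 9 members with an unadjusted p under 0.05 by limma, 7 were higher in ganglia than heads and had more reads in hh(RNAi). These were 7 of the 18 members of that set that were tested (38.9%, beside 6.67% of all contigs). For prog-1 the difference was log2 -0.34 ± 0.43 (SE), adjusted p = 0.995 by limma, and its sign turned when hh(RNAi) library a or ptc(RNAi) library a was left out.

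**Figure D5:**
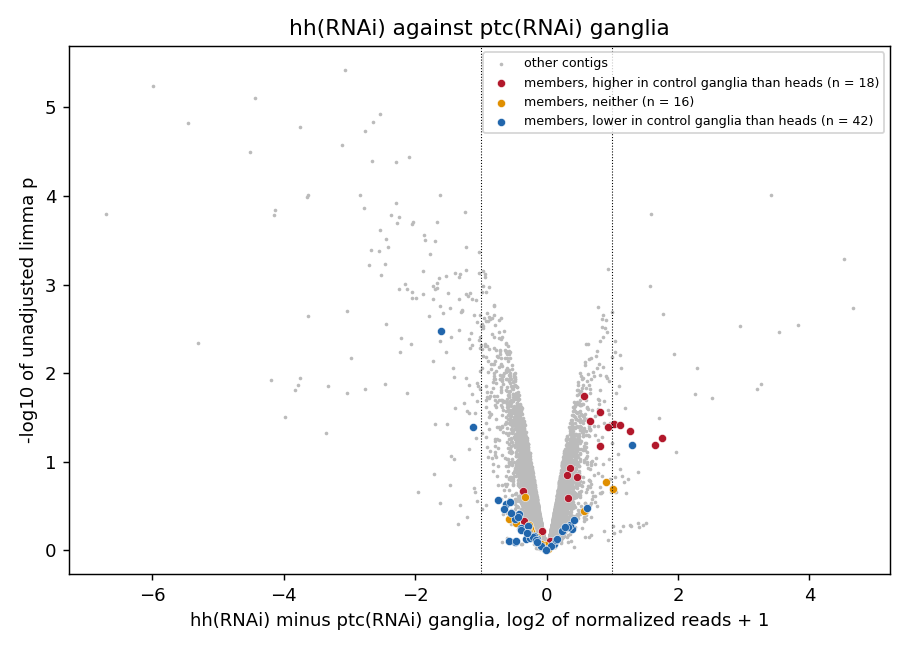
Log2 difference of hh(RNAi) from ptc(RNAi) ganglia (x axis) and -log10 of the unadjusted limma p (y axis) for contigs at the minimum level, with 2-fold dotted. Members (colours) lie between -1.61 and 1.76, and none passed the adjusted test.

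Of the genes of the Hh pathway itself, only ptc had the pattern of the members. Of hh, ptc, smo, sufu, gli-1, gli-2 and gli-3, 5 passed the minimum in each ganglia comparison and none was called by limma. The rule values of ptc, which was left out as a listed marker, were -1.12 in hh(RNAi) and -0.58 in ptc(RNAi), and it was the target of 1 of the RNAi treatments. The values of the ligand gene hh, itself targeted in hh(RNAi), were -1.92 in hh(RNAi) and -0.28 in ptc(RNAi), and those of the transducer smo were 0.03 in hh(RNAi) and -0.27 in ptc(RNAi). The gli genes encode the transcription factors of the pathway; gli-1 was at -0.01 in hh(RNAi) and 0.20 in ptc(RNAi). The glial genes if-1, an intermediate filament gene, and cali did not meet the rule, if-1 at -2.09 in hh(RNAi) and 0.18 in ptc(RNAi), and cali at -2.80 in hh(RNAi) and 0.26 in ptc(RNAi). None of the 70 contigs of the study's neuronal panel could be a member, since the rule leaves listed contigs out, and none of those at the minimum would otherwise have met it; their median log2 difference by limma was 0.06 in hh(RNAi) and -0.04 in ptc(RNAi).

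Marker lists of other cell types were summed in each ganglia library beside the members. For the epidermal progeny list (agat-1 and prog-1, both detected, the latter a member with most of the reads) the sum was 8759.8 to 8838 normalized reads in controls, 2726 to 5516 in hh(RNAi) and 3279.9 to 6515 in ptc(RNAi). Most of this sum is prog-1, which the rule chose for being low in both conditions, so the sum says nothing independent of the rule, and agat-1 alone overlapped between controls and RNAi. The neoblast list (smedwi-1 and smedwi-2, both detected) was at 6726 to 9007 in controls, 5526 to 6143 in hh(RNAi) and 11683 to 13336 in ptc(RNAi). In hh(RNAi), smedwi-1 was below both controls (776 and 787 against 1443 and 1894). Most of the sum was smedwi-2, which in hh(RNAi) overlapped the controls (5366 and 4739 against 5284 and 7112). In ptc(RNAi) both genes were above both controls. The summed intestine list (mat, mboat2 and mboat7, all detected) was 2876 to 3134.6, 2618 to 3552 and 2441 to 2692 in the same order of groups. The gland marker marginal adhesive gland-1 was at 451 to 474, 210.5 to 955 and 1158 to 1274, the pharynx list (mhc6, and wntP-3 at 0 to 2.18) at 5501 to 6967, 4657 to 6177 and 5882 to 6348, and collagen at 508 to 849, 437 to 627 and 667 to 806. In these 4 lists of intestine, gland, pharynx and muscle the range of at least 1 RNAi group overlapped that of the controls. The neuron list summed to 68596 to 69357 in controls, 71889.9 to 78654 in hh(RNAi) and 60803 to 66063 in ptc(RNAi). These sums were above and below the controls respectively, but most of each was prohormone convertase 2 and choline acetyltransferase. Prohormone convertase 2 was above both controls in hh(RNAi) (45349 and 41818 against 39896 and 40058) but overlapped them in ptc(RNAi) (36041 and 40142). Choline acetyltransferase overlapped the controls in hh(RNAi) (19672 and 15036 against 15259 and 13984) but was below both in ptc(RNAi) (11243 and 13711). None of the genes of this list was called by limma in either condition. The study's neuronal panel summed to 303388 to 316188 in controls, 282848 to 332896 in hh(RNAi) and 262162 to 287638 in ptc(RNAi). Its hh(RNAi) range spanned that of the controls, and its ptc(RNAi) range was below it.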

How the data were processed

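Poly(A) RNA of S. mediterranea ganglia and heads was sequenced. The authors aligned reads with Bowtie2 to the Dresden transcriptome, keeping the best single alignment, counted them with SAMtools and used DESeq2. The deposited signal values are group means of normalized read counts, 1 table for each comparison with the control ganglia. The authors' own fold changes and p-values, also in the tables, were not used. A mean of 2 libraries moves in units set by their 2 size factors, and from these units 100% of the values above 0 could be written as whole reads per library, with a largest relative misfit of 9.35e-10. For 55 contigs of the head table more than 1 pair of head reads gave the same mean, the members dd_Smed_v4_25_0_1 and dd_Smed_v4_2_1_1 among them. Size factors recomputed from the reads matched these units.

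Contigs averaging at least 100 normalized reads over both groups were compared by limma 3.58.1 (trend, R 4.3.3) on log2 of the normalized reads with 1 added. The p-values were adjusted by Benjamini-Hochberg across all contigs of a comparison, and contigs were called at an adjusted p below 0.05 with more than a 2-fold difference. The study's own minimum was set in RPKM, which needs contig lengths not used here. The alternatives were the quasi-likelihood test of edgeR 4.0.16 after TMM scaling, DESeq2 1.42.0, both run on recovered reads, other scalings, minimums and added values, and leaving out each library. The hh(RNAi) against ptc(RNAi) comparison was scaled over the 6 ganglia libraries, the RNAi against head comparisons over all 8, and the rest over their own 4. Levels printed per library are scaled over all 8. The scripts were tested on simulated data.

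The members and marker lists were chosen with earlier results of these data known. Contigs were named by rule: those in the study's list of affected transcripts, the 10 with most reads in ganglia, the 10 with the largest gap between controls and RNAi, the 5 at each end of the hh(RNAi) against ptc(RNAi) and of the ganglia to head differences, and the 3 on either side of each threshold. The contigs dd_Smed_v4_363_0_1, dd_Smed_v4_24_0_1, dd_Smed_v4_24_0_2, dd_Smed_v4_116_0_1, dd_Smed_v4_1086_0_1, dd_Smed_v4_16560_0_1, dd_Smed_v4_18472_0_1, dd_Smed_v4_36432_0_1, dd_Smed_v4_74919_0_1, dd_Smed_v4_364_0_8 and dd_Smed_v4_364_0_9 fall outside the rule and were named after their values were seen.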

Additional observations from a re-analysis of the deposited data

How the results depend on the processing

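No paired analysis was possible because the libraries recovered from the group means carry no replicate number. The choice of members depended on the minimum and on single libraries. At a minimum of 200 and of 1000 normalized reads 62 and 26 contigs met the rule, and at a threshold of -1 it was 36, all of them members. Leaving out 1 library gave 69 (without hh(RNAi) library a) to 155 contigs (without hh(RNAi) library b), and 71 without ptc(RNAi) library b. Summed by leading number, an alternative added after seeing the data, 100 numbers met it. In hh(RNAi) against ptc(RNAi), no member was called by limma, 1 by DESeq2 (dd_Smed_v4_68_0_1), and 0 to 3 with 1 library left out. The 3, without hh(RNAi) library a, were dd_Smed_v4_116_0_1, dd_Smed_v4_137_0_1 and dd_Smed_v4_68_0_1. Over all contigs, 13 were called by limma, 8 by edgeR, 156 by DESeq2 (22 of them higher in hh(RNAi), against 0 by limma), 118 in 1 fit over all 8 libraries, 4 with no minimum and 28 to 234 with 1 library left out; the cause was not tested. Some log2 differences between hh(RNAi) and ptc(RNAi) reversed with 1 library left out: that of dd_Smed_v4_950_0_1 ran from -1.56 to 0.10, of dd_Smed_v4_480_0_1 from -1.45 to 0.15, of dd_Smed_v4_69_0_2 from -0.67 to 0.14 (0.13 without ptc(RNAi) library a) and of prog-1, dd_Smed_v4_332_0_1, from -0.81 to 0.13 (0.11 without hh(RNAi) library a). Against heads, the members called higher rose from 15 to 27 in hh(RNAi) and from 12 to 25 in ptc(RNAi) with no minimum, which let all 109 be tested. The members called in the contrasts the rule used were 0 in hh(RNAi) against control (14 by DESeq2, 0 to 1 with 1 library left out) and 1 in ptc(RNAi) against control. The latter was 22 by DESeq2, 0 by edgeR, 0 with no minimum, 0 in 1 fit over all 8 libraries, 0 with scaling by total reads and 0 to 25 with 1 library left out. Over all contigs the first of these contrasts gave 1 call (2 by edgeR, 37 by DESeq2, 10 in 1 fit, 2 with no minimum, 0 with scaling by total reads, 2 to 13 with 1 library left out) and the second 41, of which 32 were higher (126 by DESeq2, 19 with 17 higher in 1 fit, 0 with no minimum, 9 to 112 with 1 library left out). Of 250 alternative values for the named contigs, 233 kept direction and call, 4 lost the call, 7 gained it and 6 reversed. Each group had 2 libraries. In a fit with 1 library left out, its group had 1 library and the spread came from the other group alone. Nothing is read from the calls of those fits. What depth limits was not tested.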
